A study of Mus musculus with 9 samples.

Results

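The inflammasome genes described here are 10 genes of the mouse pathway that senses danger signals inside a cell and releases interleukin-1 cytokines: the sensors Nlrp3, Aim2, Naip2 and Naip5, the adaptor Pycard, the proteases Casp1 and Casp4, the pore-forming protein Gsdmd, and the cytokines Il1b and Il18. They were chosen by symbol, as the probe sets that carry exactly 1 of these symbols, and all 10 were found, each with 1 probe set, among 19938 genes that could be named. Brain RNA was hybridised to 9 GeneChip Mouse Gene 1.0 ST arrays, 3 for each group. The HPYD group was APP/PS1 transgenic mice on the C57/6J background that received HPYD, a β-sheet breaker peptide designed against amyloid aggregation, at 33 mg/mL and 5 μL per day through the nose for 30 days. The model group was APP/PS1 mice on the same background that received saline, and the control group was C57/6J mice without the transgenes that also received saline. The APP/PS1 mice were purchased at 8 months of age, the control mice were of the same age, and all brains were taken after the Morris water maze. The transgenes of APP/PS1 mice encode amyloid precursor protein and presenilin. No source at hand names their promoters or the line. No source says whether each array held a separate mouse, so the p-values measure the spread between these arrays, which may be technical.

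Inflammasomes work in steps. In a first step, Toll-like receptors and cytokine receptors drive transcription of the genes for sensors and for pro-interleukin-1β. In a second step, a sensor that has met its trigger gathers the adaptor ASC (Pycard) and caspase-1, which cuts the cytokine precursors and opens gasdermin D, so that the cytokines leave the cell and the cell may die by pyroptosis. In the brain these genes are expressed mainly by microglia, and in blood by granulocytes and monocytes. In mice that deposit amyloid, microglia around the plaques take on a typical expression program that includes Cst7, Clec7a and Itgax. Arrays measure transcripts only, and cleavage of caspase-1, gasdermin D and the cytokines lies outside these data. In RNA from brain tissue, fewer cells of a type and less RNA per cell cannot be told apart.

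Some arrays stood apart, and each of them touches the comparisons below. The array labelled HPYD 3 went against its label. Its App signal was 12.53 on the log2 scale, against 12.98 and 13.01 in HPYD 1 and 2, 12.95 to 13.02 in the model group and 12.56 to 12.62 in the control group. Its Prnp signal was 11.52, against 12.54 and 12.47 in HPYD 1 and 2, 12.42 to 12.55 in the model group and 11.76 to 11.81 in the control group, so both signals lay below those of every control array. It also had a low signal for Xist, the RNA of the inactive X chromosome (5.22), and a high signal for the Y-linked gene Kdm5d (7.84), as did every control array, whereas HPYD 1, HPYD 2 and all model arrays had Xist between 11.18 and 11.78. Genotype and sex therefore cannot be told apart between the model and control groups. Without HPYD 3, the HPYD and control groups differ in genotype, sex and treatment together. With it, the HPYD group mixes both patterns of Xist and Kdm5d, whereas the model group does not. The arrays Model 1, Model 2 and HPYD 2 had raised markers of granulocytes, erythroid precursors and skeletal muscle. Relative to the control means, the median of the 2 erythroid genes measured was at 1.41, 2.61 and 1.67 in these arrays. The granulocyte and muscle markers are described further below. The median of 9 neuronal markers lay 0.24 below to 0.03 above the control mean in the 9 arrays, but genes of excitatory forebrain neurons were low in 2 of them. Camk2a was at 12.02 in HPYD 3 and 12.08 in Model 2, against 12.92 and 13.01 in HPYD 1 and 2, 12.99 and 12.96 in Model 1 and 3 and 12.97 to 13.06 in the control group, and Slc17a7 was at 11.45 in HPYD 3 and 11.09 in Model 2, against 11.95 to 12.40 in the control group. Of the 9 markers, 8 had a lower mean in the model than in the control group. The part of these differences in the results below was not tested.

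**Figure D1:**
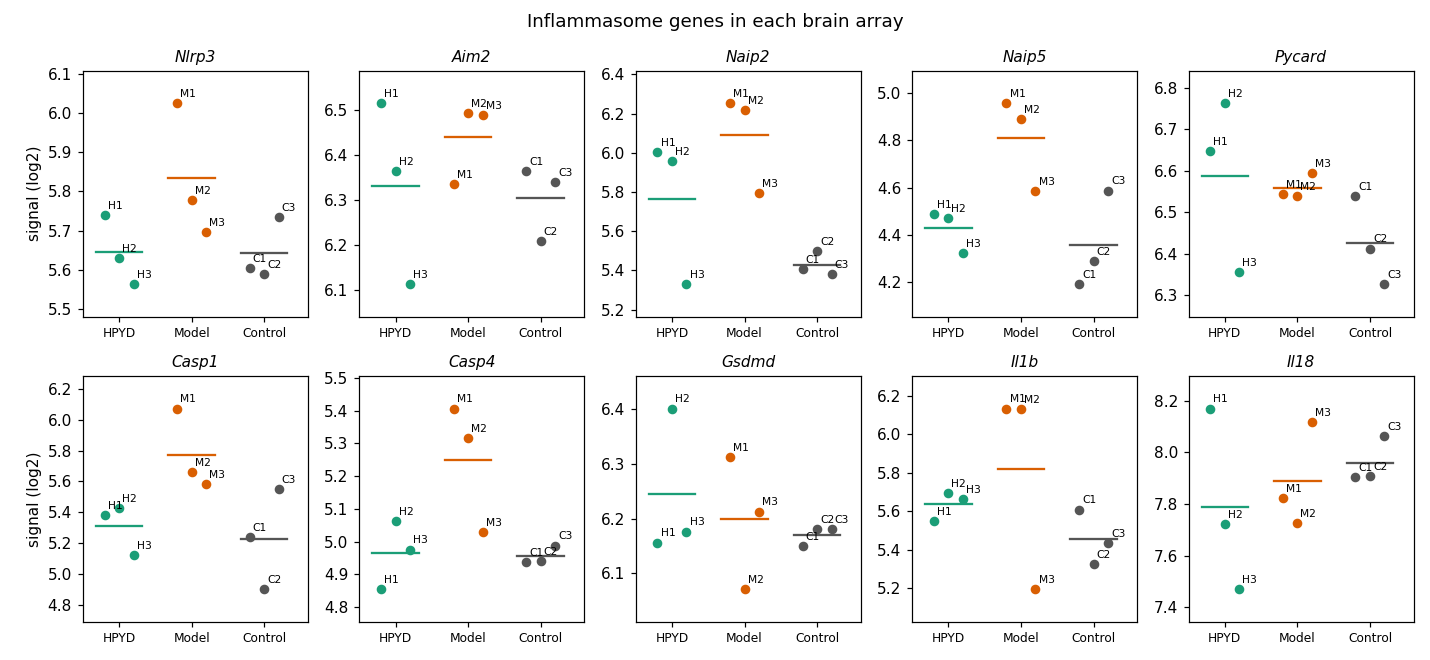
Signal (log2) of the 10 inflammasome genes in each array, with 1 panel per gene and its own vertical scale. Points are arrays (H, HPYD; M, Model; C, Control), and short lines are group means of 3 arrays. The 3 model arrays lie above all control arrays for Naip2, Casp1 and Casp4, and HPYD 3 is the lowest HPYD array for 7 of the genes.

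Among the sensors, the NAIP genes had the smallest unadjusted p from limma in the model against the control group. Both had dim mean signals, under the 6.32 that a filter on dim genes required, as had Casp1 and Casp4. Naip2 and Naip5 encode cytosolic receptors that in mice bind bacterial proteins, the rod of type III secretion systems for Naip2 and flagellin for Naip5, and then join Nlrc4. Naip2 (chr13:100144063-100202122 in GRCm38.p6) had signals of 6.25, 6.22 and 5.79 in the model arrays, against 5.40, 5.50 and 5.38 in the control arrays. The 2 groups did not overlap, with 0.29 between the nearest arrays, as the plot of signals by array shows. The difference of 0.66 ± 0.19 (SE), a 1.58-fold higher mean in the model group, had an unadjusted p of 0.00853 and, from limma, an adjusted p of 0.859. Naip2 in the HPYD arrays was at 6.01, 5.96 and 5.33, so that HPYD 1 and 2 lay below Model 1 and 2 but above every control array, and HPYD 3 lay below every control array. The difference of the HPYD group from the model group was −0.32 (95% interval −0.76 to 0.12, unadjusted p = 0.129, adjusted p = 1 from limma). It was −0.11 without HPYD 3 (unadjusted p = 0.464), so 1 array decided its size. Against the control group the HPYD group was at 0.34 (unadjusted p = 0.116, adjusted p = 0.86), and at 0.55 without HPYD 3 (unadjusted p = 0.00485, adjusted p = 1).

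Naip5 (chr13:100211735-100250930) lies 9612 bases from Naip2. Its signals were 4.96, 4.89 and 4.59 in the model arrays, against 4.19, 4.29 and 4.59 in the control arrays, and the groups overlapped by less than 0.01, at Model 3 and Control 3. The difference was 0.45 ± 0.13 (SE), 1.37-fold, with the smallest unadjusted p of the 10 genes in this comparison (0.00765) and an adjusted p of 0.859. The HPYD arrays were at 4.49, 4.47 and 4.33, all below the model arrays, by 0.10 between the nearest. That difference was −0.38 ± 0.13 (SE; unadjusted p = 0.0177, adjusted p = 1 from limma), and −0.33 without HPYD 3 (unadjusted p = 0.0581). Against the control group the HPYD group was at 0.07 (95% interval −0.23 to 0.37). The unadjusted p of the model against the control group stayed under 0.05 for Naip2 and for Naip5 whichever of the 9 arrays was left out, which held for none of the other inflammasome genes.

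Naip2 and Naip5 are copies of each other, and probes for 1 of them may also take up transcripts of its relatives, so their signals are not fully separate. The likeness reaches into the bases before their transcript starts. RefSeq windows of 300 bases (250 before and 50 after a start, GRCm38.p6) were at hand for 9 of the 10 genes, and for Naip5 the start used lies inside the annotated gene. Of 134 aligned bases of these windows 123 were identical (91.8%), and of the 85 that lie before the start of Naip2, 77 were identical (90.6%). Both stretches are shown because they belong to the sensor pair with the lowest p-values, both lie on the minus strand, and capitals mark the bases that differ. That of Naip2 lies at chr13:100202123-100202207 and that of Naip5 at chr13:100247344-100247428.
Naip2: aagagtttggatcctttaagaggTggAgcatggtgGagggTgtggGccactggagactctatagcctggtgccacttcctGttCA
Naip5: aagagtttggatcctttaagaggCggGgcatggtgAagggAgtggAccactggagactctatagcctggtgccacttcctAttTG
Naip6, the next relative on the chromosome and 30190 bases from Naip5, had signals of 4.65, 5.12 and 4.73 in the model arrays, against 4.35, 4.40 and 4.59 in the control arrays (difference 0.39, unadjusted p = 0.0176, adjusted p = 0.859). For Nlrc4, the partner on which these receptors act, the model and control groups differed by −0.02 (unadjusted p = 0.741).

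Nlrp3 and Aim2 showed smaller differences. Nlrp3 (chr11:59541569-59566955) responds to potassium efflux and to damaged lysosomes, and is the sensor most studied in amyloid disease. It had signals of 6.03, 5.78 and 5.70 in the model arrays, against 5.60, 5.59 and 5.74 in the control arrays. The groups overlapped at Model 3 and Control 3, and the difference of 0.19 had an unadjusted p of 0.0805. In the HPYD arrays Nlrp3 was at 5.74, 5.63 and 5.56, which is −0.19 from the model group (95% interval −0.41 to 0.03) and 0.00 from the control group (95% interval −0.22 to 0.22). Model 1 was the highest array, and without it the 2 differences that involve the model group were 0.10 and −0.09. Aim2 (chr1:173349547-173466040), which binds double-stranded DNA in the cytosol, had signals of 6.34, 6.49 and 6.49 in the model arrays and of 6.36, 6.21 and 6.34 in the control arrays. Its difference of 0.13 lay within the spread of the arrays (unadjusted p = 0.239). The HPYD arrays, at 6.51, 6.36 and 6.11, spanned the whole range of the other groups.

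The adaptor showed no separation between the groups. Pycard (chr7:127991373-127993867) encodes ASC, which links most sensors to caspase-1. Its signals were 6.65, 6.76 and 6.36 in the HPYD arrays, 6.54, 6.54 and 6.59 in the model arrays, and 6.54, 6.41 and 6.33 in the control arrays. The model group differed from the control group by 0.13 (95% interval −0.11 to 0.38), and the HPYD group from the model group by 0.03 (95% interval −0.21 to 0.27). Pycard is the gene where HPYD 1 and 2 were the 2 highest arrays of all 9, and without HPYD 3 the HPYD group lay 0.28 above the control group (unadjusted p = 0.00933, adjusted p = 1), against 0.16 with it (unadjusted p = 0.163).

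Both inflammatory caspases were at a higher mean in the model arrays. Casp1 (chr9:5298517-5307281) encodes caspase-1, the protease that matures both cytokines. It had signals of 6.07, 5.66 and 5.58 in the model arrays, against 5.24, 4.90 and 5.55 in the control arrays, and the groups stood apart by only 0.03, between Model 3 and Control 3. The difference was 0.54 ± 0.19 (SE), 1.46-fold, with an unadjusted p of 0.0200 and an adjusted p of 0.859 from limma. The HPYD arrays were at 5.38, 5.43 and 5.12, all below the model arrays, by 0.16 between the nearest. That difference was −0.46 ± 0.19 (SE), a ratio of 0.726, with an unadjusted p of 0.0392 and an adjusted p of 1, and it was −0.37 without HPYD 3 (unadjusted p = 0.122). Against the control group the HPYD group was at 0.08 (95% interval −0.35 to 0.51).

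Casp4 (chr9:5308849-5336791), 1567 bases from Casp1, encodes the mouse protease often called caspase-11, which binds lipopolysaccharide in the cytosol and can cut gasdermin D by itself. It had signals of 5.41, 5.32 and 5.03 in the model arrays, against 4.94, 4.94 and 4.99 in the control arrays. The groups stood apart by 0.04, and Model 3 lay close to the controls. The difference of 0.29 ± 0.10 (SE) had an unadjusted p of 0.0198 and an adjusted p of 0.859. The HPYD arrays, at 4.85, 5.06 and 4.98, overlapped the model arrays at Model 3, and their difference of −0.29 ± 0.10 (SE) had an unadjusted p of 0.0225 (adjusted p = 1 from limma), and of 0.0454 without HPYD 3. Without Model 1, the unadjusted p of Casp1 and of Casp4 in the model against the control group was 0.0727 and 0.0718. Gsdmd (chr15:75862144-75867408), which forms the pore that both caspases open, had signals of 6.16, 6.40 and 6.18 in the HPYD arrays, 6.31, 6.07 and 6.21 in the model arrays, and 6.15, 6.18 and 6.18 in the control arrays. Its 3 differences were between 0.03 and 0.07, and each 95% interval lay within −0.17 to 0.27.

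The cytokine genes did not follow the caspases in every array. Il1b (chr2:129364569-129371164) encodes the precursor of interleukin-1β, and its transcript is induced by priming. It had signals of 6.13, 6.13 and 5.19 in the model arrays, against 5.61, 5.32 and 5.44 in the control arrays. Model 3 was thus the lowest of all 9 arrays while Model 1 and 2 were the highest. The difference of 0.36 (95% interval −0.17 to 0.90) had an unadjusted p of 0.158, and without Model 3 it was 0.68 (unadjusted p = 0.000173, adjusted p = 0.0984). The HPYD arrays were at 5.55, 5.69 and 5.66, which is −0.18 from the model group (unadjusted p = 0.454), and −0.50 without Model 3 (unadjusted p = 0.00116, adjusted p = 0.261). Every array was left out in turn, and Model 3 is named here for its low value. The model arrays that then remain, Model 1 and 2, had raised granulocyte and muscle markers. With the granulocyte median of each array as a covariate, Il1b differed by 0.03 between the model and control groups (unadjusted p = 0.851 from limma). Il18 (chr9:50554700-50581841), a cytokine gene that many cells transcribe without priming, had signals of 8.17, 7.72 and 7.47 in the HPYD arrays, 7.82, 7.73 and 8.12 in the model arrays and 7.90, 7.91 and 8.06 in the control arrays. It was the only one of the 10 genes whose mean was lower for the model arrays than for the control arrays (−0.07, 95% interval −0.47 to 0.33), and the groups overlapped in every comparison.

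**Figure D2:**
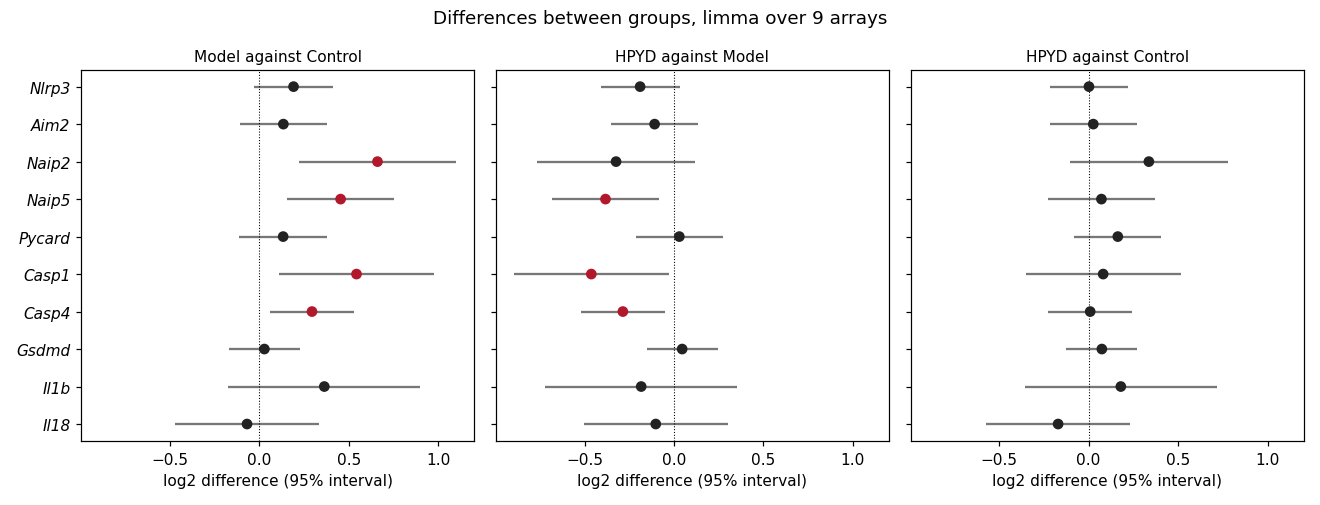
Differences in log2 signal for the 10 genes in the 3 comparisons, from limma over 9 arrays. Points are differences of group means, lines are 95% intervals, and red points have an unadjusted p under 0.05, which holds for 4 genes in the model against the control group, 3 in the HPYD against the model group and 0 in the HPYD against the control group.

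Counted over the 10 genes, none passed an adjusted p under 0.05 in any comparison, and neither did any other gene (0% of 19938 genes tested, by limma with Benjamini-Hochberg adjustment). In the model against the control group, 9 of the 10 genes had the higher mean in the model group, against 45.0% of all genes, and their median difference was 0.24, against −0.01 over all genes. Naip5, Naip2, Casp4 and Casp1 were higher at an unadjusted p under 0.05, against 2.87% of all genes (572 genes), and none was lower, against 2.05% (408 genes). The arrays of Naip2, Casp1 and Casp4 did not overlap, with the model group higher, against 4.83% of all genes, and none was separated the other way, against 4.68%. The study itself picked these 4 genes from the same arrays, so that their direction cannot count as independent evidence. It also measured these genes by RT-qPCR and reports good concordance with the arrays. Those measurements are not among the data used here. With 3 arrays against 3, the exact two-sided permutation test cannot give a p below 0.1, and it gave 0.1 for the 3 separated genes and 0.2 for Naip5.

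For the HPYD against the model group, 2 of the 10 genes had the higher mean in the HPYD group (Pycard and Gsdmd), against 57.5% of all genes, and the median difference was −0.19, against 0.02 over all genes. Naip5, Casp4 and Casp1 were lower at an unadjusted p under 0.05, against 0.752% of all genes (150 genes), and none was higher, against 1.22% (243 genes). Casp1 and Naip5 did not overlap, with the HPYD group lower, against 0.983% of all genes, and none was separated with the HPYD group higher, against 2.24%. Both comparisons share the model arrays, so they are not independent of each other. The study picked Casp1, Casp4 and Naip5 from the same arrays and reports its selected genes as restored after HPYD. Their direction here cannot count as independent evidence either. Against the control group, 9 of the 10 genes had the higher mean in the HPYD group, compared with 54.3% of all genes, with a median difference of 0.07, against 0.01 over all genes. That median was 0.13 without HPYD 3. None was higher at an unadjusted p under 0.05 (against 2.00% of all genes) or lower (against 1.24%), and none was separated with the HPYD group higher (against 4.78%) or lower (against 4.74%).

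The 10 genes also varied between arrays of 1 group. Relative to the control means, the median of the 10 genes was 0.14, 0.16 and −0.07 in HPYD 1, 2 and 3, and 0.42, 0.27 and 0.16 in Model 1, 2 and 3. In HPYD 1, 2 and 3, 5, 5 and 1 of the genes lay above all control arrays, and in Model 1, 2 and 3, 8, 7 and 7 did. Of all genes, 20.6%, 29.6% and 39.6% did so in HPYD 1, 2 and 3, and 25.3%, 30.1% and 19.1% in Model 1, 2 and 3. Markers of granulocytes and their precursors, a list of 16 genes that includes S100a8 and Camp, varied as well and were also highest in Model 1 and 2. Their median was at −0.51, 1.98 and −0.01 in HPYD 1, 2 and 3 and at 2.35, 2.75 and −0.38 in Model 1, 2 and 3. The model mean exceeded the control mean for all 16, and their summed signal, as log2, was 10.2 to 13.4 in the HPYD group, 10.1 to 14.2 in the model group and 10.9 to 11.4 in the control group. In the same 3 arrays, Model 1, Model 2 and HPYD 2, the median of 15 skeletal muscle genes was at 2.31, 3.72 and 0.74, and that of 6 monocyte genes at 0.58, 0.67 and 0.26. No list had a marker at 0, as array signals have a floor above it.

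Microglial markers moved in another way. The median of 14 markers of plaque-associated microglia was at 1.14, 0.90 and −0.04 in HPYD 1, 2 and 3 and at 0.88, 0.48 and 1.07 in Model 1, 2 and 3, so that it was raised in Model 3, where the granulocyte markers were not. Their summed signal, as log2, was 12.8 to 13.6 in the HPYD group, 13.2 to 13.6 in the model group and 12.7 to 12.8 in the control group, and the model mean exceeded the control mean for all 14. The median of 10 markers of homeostatic microglia was at 0.27, 0.32 and −0.61 in the HPYD arrays and at 0.27, −0.36 and 0.37 in the model arrays. In Model 3, which had raised microglial markers without raised granulocyte markers, Naip2 was 0.37 above the control mean, Casp1 0.35, Naip5 0.23 and Casp4 0.07, while Il1b was 0.26 below it. HPYD 1 had the same marker pattern, and there Naip2 was 0.58 above the control mean, Casp1 0.15, Naip5 0.13 and Il1b 0.10, while Casp4 was 0.10 below it. In HPYD 2, which had both kinds of markers raised, Naip2 was 0.53 above the control mean, Il1b 0.24, Casp1 0.20, and Naip5 and Casp4 0.11 each.

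**Figure D3:**
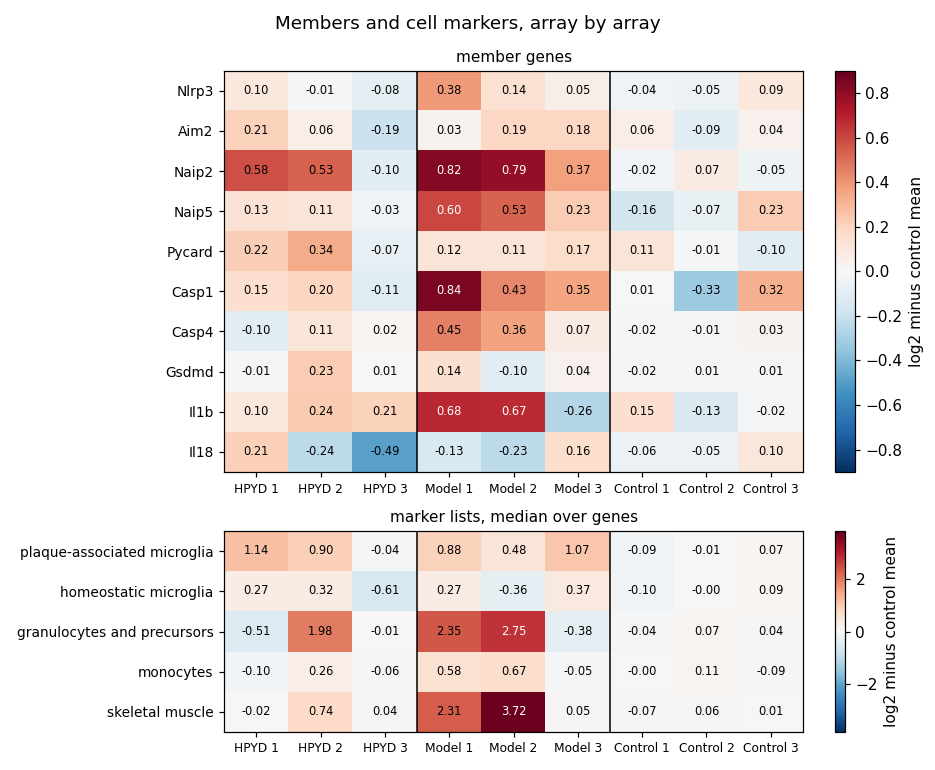
Log2 signal minus the control mean for the 10 genes (upper panel) and for the median of 5 marker lists (lower panel), with 1 column per array and separate colour scales. Model 1 and Model 2 are high for granulocyte and muscle markers and for Naip2, Naip5, Casp1, Casp4 and Il1b, whereas in Model 3, of the 5 lists, only the microglial ones are raised.

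Fits that left these arrays out, or adjusted for these markers, gave smaller differences for Naip2, Naip5, Casp1 and Casp4. Without Model 1, Model 2 and HPYD 2, which leaves Model 3 as the only model array (its spread then taken to be that of the other arrays), the model and control groups differed by 0.37 for Naip2 (unadjusted p = 0.22), 0.35 for Casp1 (0.244), 0.23 for Naip5 (0.249) and 0.07 for Casp4 (0.429). Il1b changed sign there, to −0.26 in the model against the control group, and to 0.41 in the HPYD against the model group (unadjusted p = 0.0323, adjusted p = 0.975). With the granulocyte median of each array as a covariate, the model and control groups differed by 0.47 for Naip2 (unadjusted p = 0.0490), 0.34 for Naip5 (0.0447), 0.43 for Casp1 (0.0914), 0.15 for Casp4 (0.0862) and 0.03 for Il1b (0.851). In the same fit, the HPYD group differed from the model group by −0.38 for Casp1 (unadjusted p = 0.103), −0.30 for Naip5 (0.0512), −0.18 for Casp4 (0.0318) and 0.05 for Il1b (0.779). All adjusted p-values of these genes in this fit were 1 in both comparisons. Both fits were chosen after the arrays had been seen, and the part of the microglial markers in these differences was not tested.

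**Figure D4:**
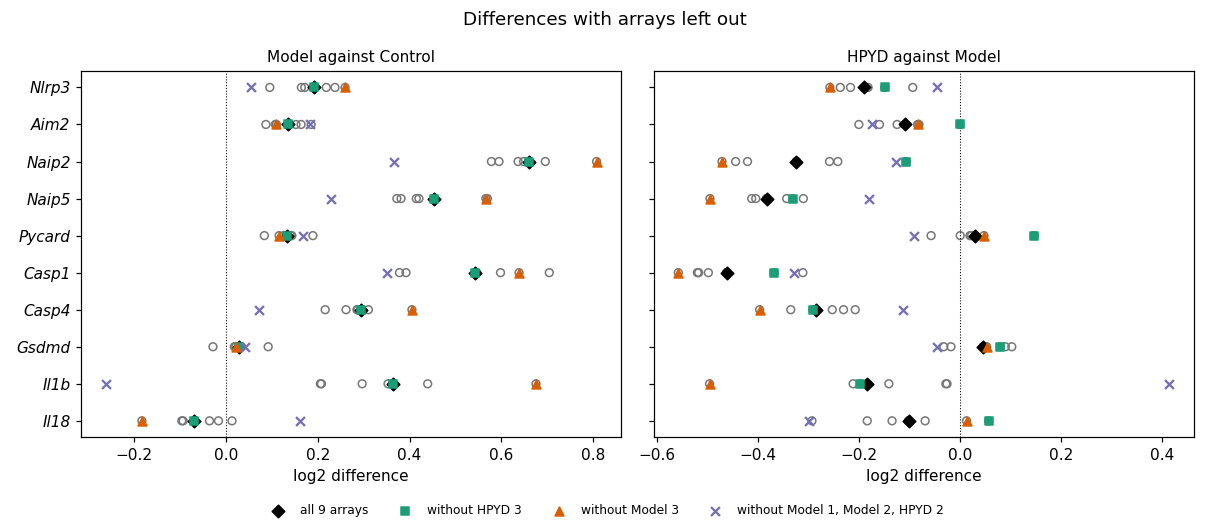
Differences in log2 signal for the 10 genes in 2 comparisons, with all 9 arrays (diamonds), with each array left out in turn (circles) and without the arrays named in the legend (other symbols). Naip2, Naip5, Casp1, Casp4 and Nlrp3 keep their sign in both comparisons. Il1b changes its sign without Model 1, Model 2 and HPYD 2, and Gsdmd, Il18, Aim2 and Pycard change theirs in some of the settings shown.

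The rest of the pathway was read from 6 lists, of which 65 genes were measured besides the 10. In the model against the control group 51 of the 65 had the higher mean in the model group (45.0% of all genes), with a median difference of 0.12. At an unadjusted p under 0.05, 9 were higher (2.87% of all genes) and 1 was lower (2.05%), and none passed the adjusted threshold in any comparison. In the HPYD against the model group, 25 of the 65 had the higher mean in the HPYD group (57.5% of all genes, median difference −0.04), with 0 higher (1.22%) and 1 lower (0.752%) at an unadjusted p under 0.05, and in the HPYD against the control group 50 of the 65 had it (54.3% of all genes, median difference 0.08), with 2 higher (2.00%) and 1 lower (1.24%).

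Among the 9 receptors and transcription factors of priming, 8 had a higher mean in the model than in the control group (45.0% of all genes). Of these, 4 had an unadjusted p under 0.05, against the same 2.87% of all genes. Irf8, a transcription factor of macrophages and microglia, had signals of 7.86, 7.56 and 7.73 in the model arrays, against 6.98, 7.15 and 7.20 in the control arrays (difference 0.61, unadjusted p = 0.0118, adjusted p = 0.859), and the groups did not overlap. Tlr4, the receptor for lipopolysaccharide, differed by 0.24 between the model and control groups (unadjusted p = 0.0432). In the HPYD arrays it was at 5.06, 5.20 and 5.05, against 5.50, 5.41 and 5.22 in the model arrays (difference −0.27, unadjusted p = 0.0245, adjusted p = 1), without overlap. Tlr2, a receptor for bacterial lipoproteins, differed by 0.24 between the model and control groups (unadjusted p = 0.0416) and by 0.27 between the HPYD and control groups (unadjusted p = 0.0254), while the HPYD and model groups differed by 0.03 (unadjusted p = 0.76).

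Of 16 other sensors and adaptors, 11 had a higher mean in the model than in the control group, against 45.0% of all genes. Naip6 and Nod1 were higher at an unadjusted p under 0.05, against 2.87% of all genes. Nod1, a sensor of bacterial cell walls, differed by 0.22 (unadjusted p = 0.0222), and Nlrp1a by 0.14 (unadjusted p = 0.0897). Of 10 genes for triggers and channels, Cybb, the catalytic subunit of the phagocyte NADPH oxidase, had signals of 9.33, 9.64 and 6.46 in the model arrays, against 6.44, 6.46 and 6.30 in the control arrays, so its difference of 2.07 (unadjusted p = 0.0394) rested on Model 1 and 2. Panx1, a channel that releases ATP, was lower in mean than in the control arrays both in the model arrays (−0.39, unadjusted p = 0.0195) and in the HPYD arrays (−0.35, unadjusted p = 0.0318), without overlap in either comparison. Ctsb, a lysosomal protease, differed by 0.14 between the model and control groups (unadjusted p = 0.0594).

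Of 13 genes for other caspases, gasdermins and necroptosis, 8 had a higher mean in the model than in the control group (45.0% of all genes). Casp8, an initiator caspase, differed by 0.42 (unadjusted p = 0.0344), and Mlkl, the pore protein of necroptosis, by 0.25 (unadjusted p = 0.145). Birc3, an inhibitor of apoptosis, differed by −0.33 between the HPYD and model groups (unadjusted p = 0.0529). Of 6 guanylate-binding proteins and related GTPases, which act on vacuoles and bacteria upstream of caspase-11, Irgm1 had the smallest p of the pathway lists. It had signals of 7.45, 7.42 and 7.43 in the HPYD arrays, 7.76, 7.51 and 7.55 in the model arrays and 7.15, 7.22 and 7.33 in the control arrays. Its 3 groups did not overlap, and the HPYD level lay between those of the model and control groups. The study also picked Irgm1 from these arrays, so this pattern cannot count as independent evidence. Irgm1 is also among the genes that the study measured by RT-qPCR, for which it reports good concordance with the arrays. Those measurements are not among the data used here. The difference between the model and control groups was 0.37 (unadjusted p = 0.00137, adjusted p = 0.859), that between the HPYD and control groups 0.20 (unadjusted p = 0.0340) and that between the HPYD and model groups −0.17 (unadjusted p = 0.0575). Gbp3 and Gbp5 differed by 0.12 and 0.18 between the model and control groups (unadjusted p = 0.0579 and 0.0727).

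All 11 measured genes of the interleukin-1 family and its receptors had a higher mean in the model than in the control group (45.0% of all genes). None had an unadjusted p under 0.05, against 2.87% of all genes. Il1f9, an epithelial and myeloid cytokine of the family, had signals of 6.39, 6.83 and 4.82 in the model arrays, against 4.97, 4.96 and 4.90 in the control arrays (difference 1.07, unadjusted p = 0.0736). As for Il1b, Model 3 lay below every control array and Model 1 and 2 above. Il1rn, the antagonist of the interleukin-1 receptor, differed by 0.17 (unadjusted p = 0.128), and Il18r1, a receptor chain for interleukin-18, by 0.10 (unadjusted p = 0.451).

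How the 10 genes varied together is given as a description over 9 arrays that share 3 groups and the array features above. Pearson's r was 0.91 for Casp1 and Nlrp3, 0.90 for Casp1 and Naip5, 0.88 for Nlrp3 and Naip5, 0.87 for Casp4 and Naip5, and 0.79 for Naip2 and Naip5. The neighbouring genes Casp1 and Casp4 had r = 0.78. Casp4 and Il1b had r = 0.81, whereas Il18 had r = −0.52 with Il1b and −0.34 with Casp4. Among 19927 other genes, the 8 whose signal was most like the mean of the 10 genes were Edem1 (r = 0.97), Clec5a (0.96), Spi1 (0.96), C5ar1 (0.95), Ccl9 (0.94), Casp8 (0.94), Pilra (0.94) and Csf3r (0.93). Clec5a and Pilra are receptors of myeloid cells, C5ar1 is the receptor for complement C5a, Ccl9 is a chemokine, Csf3r is the receptor for the granulocyte growth factor and 1 of the 16 granulocyte markers above, and Edem1 acts in the degradation of misfolded glycoproteins. The study also names Clec5a among the genes it picked from these arrays and measured by RT-qPCR. Spi1 encodes PU.1, a transcription factor that myeloid cells, microglia among them, need. Spi1 had signals of 7.55, 8.07 and 6.74 in the HPYD arrays, 8.47, 8.35 and 7.57 in the model arrays and 7.03, 7.03 and 7.51 in the control arrays, where again HPYD 3 was the lowest array and Model 1 the highest.

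The RefSeq windows of 9 of the 10 genes were searched on both strands for short motifs. GAGGAAG, a core to which PU.1 can bind, was in the windows of Nlrp3, Aim2 and Pycard (3 of 9 genes, against 15.4% of 27025 genes). GGGANTTTC, a form of the NF-κB site, was in that of Aim2 alone (1.29% of genes), and GAAANNGAA, a form of the interferon-stimulated response element, in that of Naip2 alone (9.76%). TTCNNNGAA (9.55%) and TGANTCA (8.97%) were in none, and TATAAA was in those of Il1b (at position −31 from its start), Il18 and Naip5 (15.7%). The stretches of the 3 genes with GAGGAAG are shown because Spi1 was among the genes most like the group, with this motif or its complement CTTCCTC, and in Aim2 also the match to GGGANTTTC, in capitals. They lie at chr1:173420435-173420512 on the plus strand for Aim2, chr7:127993889-127993925 on the minus strand for Pycard and chr11:59542541-59542671 on the plus strand for Nlrp3, and the starts used for Aim2 and Nlrp3 lie inside the annotated genes. Nlrp3 has another window, at its annotated start, without a match to GAGGAAG.
Aim2: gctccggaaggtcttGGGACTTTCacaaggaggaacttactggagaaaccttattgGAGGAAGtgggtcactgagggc
Pycard: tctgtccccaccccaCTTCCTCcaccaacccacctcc
Nlrp3: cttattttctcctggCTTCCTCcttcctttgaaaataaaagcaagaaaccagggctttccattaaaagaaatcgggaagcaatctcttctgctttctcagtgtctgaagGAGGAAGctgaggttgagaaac
A match of letters is no binding site by itself. The 4 genes with the lowest p-values, Naip5, Naip2, Casp4 and Casp1, had no match to GAGGAAG in their windows, and only these letters and windows were searched.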

How the data were processed

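Brain RNA of 9 samples was measured on arrays, 3 per group, and groups were taken from the sample labels. The table that the authors deposited holds log2 values of 35556 probe sets. MAS5 is named in the submitters' processing notes, while the normalization and any filter were not stated in the sources at hand. Apart from escape latency, the study states one-way ANOVA followed by the Student-Newman-Keuls procedure for its data (called here the methods' test). Its methods do not say which test selected genes from the arrays. The values were used as deposited, between 2.37 and 14.01, with array medians of 6.69 to 6.82. The number of arrays limits the precision.

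The gene table of the array platform gave 1 symbol for 21789 probe sets, several for 1621 and none for 12146, and the last 2 kinds were left out. For 999 genes with several probe sets, that with the highest mean was kept. All 10 genes were matched by Entrez identifier to RefSeq (GRCm38.p6). The 3 groups were fitted together with limma 3.58.1 in R 4.3.3, with 6 residual and 2.13 prior degrees of freedom, p-values were adjusted over 19938 genes by Benjamini-Hochberg, and the fit was tested on simulated data. Adjusted p-values are over all genes. Exact permutation tests used SciPy 1.17.1. The members and lists were chosen with earlier results of these data known. Named genes were all 10, the 3 of each pathway list with the smallest unadjusted p in any comparison, the 8 most like the mean of the 10, and checks of labels. Nlrc4 and the reading of Spi1 in each array were added after their values were seen. Protein sequences were not used here.

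Alternatives were other scalings, a filter on dim genes, the replicate number as a block, a fit of only the 6 arrays in question, array weights, another variance model, the mean of probe sets, the methods' test, and each array left out.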

Additional observations from a re-analysis of the deposited data

How the results depend on the processing

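No gene of the 10 was called at an adjusted p under 0.05 under any of the alternatives, whose lowest adjusted p was 0.0984 for Il1b without Model 3, so the calls say nothing of stability. Over all genes, 0 were called, against 5 in the model against the control group with only the 6 arrays compared, 0 to 7 in that comparison and 0 to 8 in the HPYD against the control group with 1 array left out (the highest counts without HPYD 3).

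The median difference of the 10 genes was 0.13 in the model against the control group without dim genes (a filter that keeps 13292 genes), which keeps only Aim2, Pycard and Il18, and −0.33 to −0.13 in the HPYD against the model group with 1 array left out. In the HPYD against the control group it was 0.07, but 0.022 with arrays shifted to one median, 0.022 with quantile normalization, 0.026 without dim genes, 0.12 with array weights, 0.016 without the 3 arrays Model 1, Model 2 and HPYD 2, 0.042 with the granulocyte covariate, and 0.016 to 0.13 with 1 array left out (0.016 without HPYD 2, 0.020 without Control 2, 0.13 without HPYD 3). The number of the 10 genes at an unadjusted p under 0.05 was 4 in the model against the control group. It was 1 with the methods' test, 0 without dim genes, 0 without the 3 arrays Model 1, Model 2 and HPYD 2, 2 with the granulocyte covariate, and 2 to 6 with 1 array left out. For the HPYD against the model group it was 3, but 1 with the methods' test, 0 without dim genes, 0 with array weights, 1 without the 3 arrays, 1 with the covariate, and 0 to 6 with 1 array left out (0 without Model 1, 6 without Model 3). For the HPYD against the control group it was 0, but 1 with array weights and 0 to 2 with 1 array left out. With 1 array left out, genes without overlap numbered 3 to 7 in the model against the control group. They numbered 2 to 6 in the HPYD against the model group and 0 to 2 in the HPYD against the control group. Without dim genes, none of the 3 genes kept was without overlap in the comparisons that involve the model group. For the counts at an unadjusted p under 0.05, the numbers of all genes at that threshold are given in the last paragraph. Those numbers also changed between settings, so the counts of the 10 genes are not to be read alone. For the counts without overlap, the share of all genes was not computed for these settings, so they have no background beside them. Fewer arrays separate more easily by construction. The replicate numbers did not pair the arrays, as the deviations of same-numbered arrays correlated between −0.32 and 0.18. With the replicate block, Casp1, Casp4, Naip2 and Naip5 were again the 4 genes at an unadjusted p under 0.05 in the model against the control group, the 3 in the HPYD against the model group were Casp4, Naip2 and Naip5 (Casp1 lost, Naip2 gained), and Naip2 was the 1 in the HPYD against the control group.

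Of 549 differences of single genes under the alternatives, 39 had the opposite sign. In the HPYD against the control group these were Aim2 (−0.025 with arrays shifted to one median, −0.034 with quantile normalization, −0.066 to 0.13 with 1 array left out), Casp4 (−0.042, −0.034, −0.041 without the 3 arrays, −0.035 with the covariate, −0.041 to 0.064), Nlrp3 (−0.049, −0.0545, −0.012 with the covariate, −0.046 to 0.048), Gsdmd (−0.0041 without the 3 arrays, −0.0041 to 0.12), Casp1 (−0.084 to 0.24) and Naip5 (−0.010 to 0.19). In the model against the control group they were Gsdmd (−0.016 with arrays shifted to one median, −0.0080 with quantile normalization, −0.016 with the covariate, −0.028 to 0.092), Il18 (0.018 with array weights, 0.16 without the 3 arrays, 0.10 with the covariate, −0.18 to 0.013) and Il1b (−0.26 without the 3 arrays). In the HPYD against the model group they were Aim2 (−0.20 to 7.6e-05), Gsdmd (−0.046 without the 3 arrays, −0.032 to 0.10), Il18 (−0.29 to 0.057), Il1b (0.41 without the 3 arrays, 0.048 with the covariate) and Pycard (−0.092 without the 3 arrays, −0.057 to 0.15). The cause was not tested.

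All genes at an unadjusted p under 0.05 numbered 980 in the model against the control group (287 with the methods' test, 1734 with array weights, 457 with the covariate, 415 without the 3 arrays, 435 to 1929 with 1 array left out), 393 in the HPYD against the model group (137, 158 without dim genes, 235 with only the 6 arrays, 624 with the covariate, 265 to 1257) and 646 in the HPYD against the control group (241, 1375 with array weights, 1014 without the 3 arrays, 340 to 1807). Of the 10 genes, 7 fell under the filter on dim genes, Naip2, Naip5, Casp1 and Casp4 among them. This limits how small a difference can be seen.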
